A study of Homo sapiens with 6 samples.

Results

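The genes described here are 9 of plasminogen activation and of proteolysis at the cell surface, out of 26255 gene symbols measured in each library. They were taken by symbol: the plasminogen activators PLAU and PLAT, the activator receptor PLAUR, the serpins SERPINE2 and SERPINB5, the membrane-bound matrix metalloproteinases MMP14 and MMP15, and the metalloproteinase inhibitors TIMP1 and TIMP2. All 9 were listed in every library and all 9 passed the minimum of a mean of 1 FPKM (fragments for each kilobase of transcript and each 1000000 mapped fragments). All 6 libraries came from HCT116, an established human colorectal carcinoma line. The title of the series speaks of colorectal cancer cells that received the degron of ornithine decarboxylase and of their use as cancer stem cell models. This degron takes a protein to the proteasome with no need for ubiquitin, so that a fluorescent protein such as ZsGreen, when joined to it, builds up where proteasome activity is low. There were 3 libraries of ZsGreen-negative and 3 of ZsGreen-positive cells, and the labels state no other treatment, time or clone for either group, nor whether the negative cells carry the degron. Nothing in the labels ties the libraries to separate cultures, and p-values therefore describe the spread between libraries that may be technical repeats. The sample titles follow a different scheme in each group, and handling that differed between the groups cannot be told apart from fluorescence.

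Plasminogen is an inactive precursor that circulates in blood and is cut to plasmin, a broad serine protease, by urokinase (PLAU) or by tissue plasminogen activator (PLAT). Urokinase bound to its receptor on the cell surface (PLAUR, anchored by glycosylphosphatidylinositol) cuts plasminogen there, and serpins stop the activators by acting as suicide substrates. Membrane-type metalloproteinases cut collagen and other matrix proteins at the cell surface, and TIMPs block them by binding the zinc site, although TIMP2 bound to MMP14 also serves to activate the secreted protease MMP2.

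The upstream sequences of the genes that moved most and of their nearest contrasts are shown first. RefSeq start sites (build GRCh38.p14) were matched by symbol for 7 of the 9 genes, all but PLAT and TIMP2, with 9 windows in all, and the 250 bases before each start were searched on both strands for 4 motifs. These were TGANTCA (AP-1 with any middle base), GGGCGG (GC box), CACGTG (E-box) and CCAAT. They occur in 6.57%, 42.6%, 6.34% and 32% of 35116 such windows. PLAUR and SERPINB5 are shown because they hold the only TGANTCA matches among these 9 windows. The GC-rich window of PLAU is shown because PLAU changed far less than its receptor. Of both SERPINE2 windows, 1 is shown because of its many CCAAT matches. Capitals mark the TGANTCA match in PLAUR and SERPINB5, the GC boxes in PLAU and the CCAAT matches of either strand in SERPINE2.
PLAUR (chr19:43670170-43670419, minus strand): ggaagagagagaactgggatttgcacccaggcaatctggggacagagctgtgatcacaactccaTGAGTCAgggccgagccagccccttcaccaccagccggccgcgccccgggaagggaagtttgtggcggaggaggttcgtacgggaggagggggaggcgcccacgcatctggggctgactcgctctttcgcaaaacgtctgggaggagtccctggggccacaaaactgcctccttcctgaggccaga
SERPINB5 (chr18:63476708-63476957, plus strand): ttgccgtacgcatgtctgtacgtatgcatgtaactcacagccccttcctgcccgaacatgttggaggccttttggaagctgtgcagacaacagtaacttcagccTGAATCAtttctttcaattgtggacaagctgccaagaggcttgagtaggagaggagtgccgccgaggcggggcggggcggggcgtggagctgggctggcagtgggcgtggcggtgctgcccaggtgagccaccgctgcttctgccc
PLAU (chr10:73910882-73911131, plus strand): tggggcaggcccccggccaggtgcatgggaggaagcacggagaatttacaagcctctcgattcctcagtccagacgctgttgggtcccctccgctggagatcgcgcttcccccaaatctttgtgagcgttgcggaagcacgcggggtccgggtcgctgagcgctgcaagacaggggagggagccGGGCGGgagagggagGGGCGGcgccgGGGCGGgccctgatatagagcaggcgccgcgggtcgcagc
SERPINE2 (chr2:224031479-224031728, minus strand): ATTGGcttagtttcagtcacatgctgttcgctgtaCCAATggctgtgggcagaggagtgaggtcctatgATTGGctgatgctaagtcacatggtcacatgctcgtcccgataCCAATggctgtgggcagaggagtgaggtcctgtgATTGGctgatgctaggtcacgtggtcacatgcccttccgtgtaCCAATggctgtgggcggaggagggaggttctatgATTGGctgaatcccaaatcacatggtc
The PLAUR match TGAGTCA starts 186 bases and the SERPINB5 match TGAATCA 146 bases before the start site. The usual AP-1 site has C or G as its middle base, which the SERPINB5 match lacks. In SERPINB5 a pair of GC boxes that share 1 base lies 77 to 67 bases before the start, and is left in lower case. The PLAU window holds 3 GC boxes, and 13.9% of all windows hold at least that many. Its other RefSeq window holds no GC box. The SERPINE2 window holds 7 CCAAT matches, which alternate between the strands, and 7 of 35116 windows (0.0199%) hold so many. The sequence around CCAAT and ATTGG recurs along this window, so the matches are not independent of each other. The same window also holds 1 E-box and 1 GC box, whereas the other SERPINE2 window holds no CCAAT match. Which of these starts the cells used was not measured, and a match is a description of the letters only.

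Depth could be estimated in 4 libraries, of which ZsGreen-positive replicate 1 was the deepest. Of 26255 genes, 8985 to 9162 were listed at 0 in the negative libraries. In ZsGreen-positive replicates 1 to 3 these were 10314, 11624 and 11989. The step of 1 fragment was sought in low FPKM values of 2137 genes that have a single annotated transcript, 1000 nt or longer. It was resolved in 4 libraries, which gave 9360000 to 9600000 fragments in the ZsGreen-negative libraries and 12100000 in ZsGreen-positive replicate 1. ZsGreen-positive replicates 2 and 3 stood apart. In these, only 6 and 7 genes lay at the most frequent low value sought as 1 fragment, against 61 to 120 elsewhere. Their depth was therefore not resolved, and the number of fragments behind their values is not known. Of 10 epithelial markers 9 had a mean of at least 1 FPKM, summing to 4821 to 4887 FPKM in the negative and 3353 to 3837 FPKM in the positive libraries, and CDX1 was listed at 0 in all 6. The epithelial markers did not all move the same way. KRT8, KRT18, CDH1, CLDN4, CLDN7 and ESRP1 were lower in every positive library, and KRT19 and CLDN3 overlapped. EPCAM was higher in every positive library, at 138 to 152 against 126 to 133 FPKM. The part of the lower epithelial sum in the results was not tested. Fibroblasts are a common source of TIMPs and metalloproteinases in tumours, and of 10 fibroblast markers only COL1A1 reached that mean. The list summed to at most 2.58 FPKM in any library, with DCN, LUM, COL1A2 and POSTN listed at 0 in all 6. Endothelial markers summed to at most 1.78 FPKM (0 of 7 at a mean of 1) and leukocyte markers to at most 4.53 FPKM (2 of 8, CD68 and LYZ).

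PLAUR, SERPINE2, TIMP1 and TIMP2 were clearly lower in ZsGreen-positive cells, PLAU was lower by a small margin, and PLAT, SERPINB5, MMP14 and MMP15 did not pass the test. Of the 9 genes 5 fell and 0 rose at a Benjamini-Hochberg adjusted p of 0.05 (limma on log2(FPKM + 1), adjusted over all 12213 tested genes). Among all tested genes 30.0% fell and 29.4% rose, 59.4% in all, so that calls are frequent in this comparison. Every positive library lay on 1 side of every negative library for 6 of 9 genes (66.7%), near the 67.6% of all tested genes. The median log2 fold change of the 9 genes was -0.43, and that of all tested genes 0.004. In bulk RNA, fewer cells that express a gene and less RNA per cell cannot be told apart.

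The urokinase receptor had the largest change of the 9 genes. PLAUR stood at 74.7, 66.8 and 69.0 FPKM in replicates 1 to 3 without ZsGreen fluorescence and at 17.3, 14.1 and 18.05 FPKM in replicates 1 to 3 with it. All 3 ZsGreen-positive libraries lay far below the lowest ZsGreen-negative one. The means were 70.2 ± 4.11 and 16.5 ± 2.104 FPKM (SD, n = 3 each), a 4.26-fold lower level. The log2 fold change was -2.03 ± 0.10 (SE; limma, adjusted p = 5.21e-06). This put PLAUR at percentile 1 of the log2 fold changes of all tested genes, counted from the lowest.

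Urokinase itself was lower by a small margin. PLAU was at 55.6, 58.0 and 59.1 FPKM without fluorescence and at 49.4, 52.1 and 52.6 FPKM with it. The groups did not overlap, but the gap between the highest positive and the lowest negative library was narrow. Means were 57.6 ± 1.82 and 51.4 ± 1.70 FPKM (SD, n = 3 each), 10.7% lower, with a log2 fold change of -0.16 ± 0.059 (SE; limma, adjusted p = 0.0483). The call was lost without ZsGreen-negative replicate 1, 2 or 3 (adjusted p = 0.0854, 0.159 and 0.182) or ZsGreen-positive replicate 1 (0.0628). Without these negative libraries the log2 fold change was -0.186, -0.155 and -0.142. Calls over all tested genes also dropped there, from 7258 to 5991, 5964 and 5993. After each library was scaled to sum to 1000000 the log2 fold change was 0.015 (adjusted p = 0.909), where the median of all genes moved to 0.14. Small RNA genes made up 66% to 68.2% of the summed FPKM of each library. Scaled without these genes, the log2 fold change of PLAU was -0.004 (limma, adjusted p = 0.972), and the median of all genes was 0.146. C10orf55, which lies across PLAU on the opposite strand, was at or under 0.96 FPKM in every library, and whether the authors' counting used strand is not given in the sources used here.

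Tissue plasminogen activator had the lowest mean of the 9 genes in each group. PLAT had 6.33, 5.40 and 5.44 FPKM without fluorescence and 2.66, 4.83 and 5.80 FPKM with it. ZsGreen-positive replicate 1 was low and replicate 3 lay within the range of the negative libraries. The difference did not pass the test (log2 fold change -0.35 ± 0.23, 95% confidence interval -0.89 to 0.18; limma, adjusted p = 0.216), and the log2 fold change was -0.092 without ZsGreen-positive replicate 1 and -0.54 without replicate 3. An estimated 137 to 165 fragments in the negative libraries and 87.3 in the first positive one lay behind these values. That gives a counting error of 7.79% to 10.7% (coefficient of variation) in those libraries. The coefficient of variation between the positive libraries was 36.3%. The counting error of ZsGreen-positive replicates 2 and 3 is not known, so that spread cannot be set against counting error.

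Of the serpins, SERPINE2, which encodes protease nexin 1, an inhibitor of thrombin and of both activators, fell. It was at 58.3, 59.2 and 56.7 FPKM without fluorescence and at 26.0, 26.1 and 24.9 FPKM with it. Both groups were tight, with coefficients of variation of 2.197% and 2.53%, the lowest of the 9 genes in each group. The mean fell from 58.1 ± 1.28 to 25.7 ± 0.649 FPKM (SD, n = 3 each), 2.27-fold lower (log2 fold change -1.15 ± 0.058; limma, adjusted p = 5.5e-06).

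SERPINB5 encodes maspin, a clade B serpin that does not inhibit proteases in the way its relatives do. It was at 18.3, 19.3 and 19.3 FPKM without fluorescence and at 19.1, 23.5 and 17.8 FPKM with it. The positive libraries lay on both sides of the negative ones, with replicate 2 highest. Its log2 fold change of 0.073 ± 0.11 (95% confidence interval -0.18 to 0.33; limma, adjusted p = 0.583) did not pass, and it was -0.038 without ZsGreen-positive replicate 2 and 0.154 without replicate 3.

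The membrane-type proteases did not pass the test. MMP14 encodes MT1-MMP, a collagenase anchored in the membrane, and was at 12.02, 12.6 and 12.2 FPKM without fluorescence and at 8.84, 6.57 and 11.8 FPKM with it. The groups did not overlap, yet replicate 3 almost reached the negative libraries and the positive group had a coefficient of variation of 29.1%, against 2.35% in the negative group. The log2 fold change was -0.43 ± 0.18 (95% confidence interval -0.85 to -0.006; limma, adjusted p = 0.0747). Without ZsGreen-positive replicate 3 it was -0.62 (adjusted p = 0.00696) and without ZsGreen-positive replicate 2 it was -0.24 (adjusted p = 0.143), so that the size and the call rest on single libraries.

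MMP15, its close relative MT2-MMP, was at 10.8, 9.08 and 9.87 FPKM without fluorescence and at 7.84, 9.06 and 9.74 FPKM with it. These ranges overlapped. The log2 fold change was -0.15 ± 0.11 (95% confidence interval -0.41 to 0.11; limma, adjusted p = 0.285). It was -0.07 without ZsGreen-positive replicate 1 and -0.088 without ZsGreen-negative replicate 1.

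Both TIMPs fell. TIMP1, a secreted inhibitor of most metalloproteinases but a poor one of the membrane types, was at 72.2, 67.3 and 62.8 FPKM without fluorescence and at 39.4, 39.996 and 33.3 FPKM with it. No positive library reached the lowest negative one. Its mean fell from 67.5 ± 4.70 to 37.6 ± 3.72 FPKM (SD, n = 3 each), 1.80-fold lower (log2 fold change -0.83 ± 0.092; limma, adjusted p = 0.000205). TIMP2, which inhibits MMP14 and MMP15, was at 9.15, 8.10 and 9.12 FPKM and at 5.43, 3.27 and 4.90 FPKM. Here too the groups stood apart, with ZsGreen-positive replicate 2 lowest. The mean fell from 8.79 ± 0.596 to 4.53 ± 1.13 FPKM (SD, n = 3 each), 1.94-fold lower (log2 fold change -0.84 ± 0.16; limma, adjusted p = 0.00339). SYN1, across TIMP1 on the opposite strand, was at or under 0.222 FPKM, and CEP295NL, within TIMP2 on the same strand, at or under 0.639 FPKM.

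When ZsGreen-positive replicates 2 and 3 were both left out, only replicate 1 remained, and the spread of that group could not be measured. Log2 fold changes were then -1.96 for PLAUR, -1.13 for SERPINE2, -0.76 for TIMP1, -0.61 for TIMP2 and -0.22 for PLAU. PLAT was at -0.87 and MMP14 at -0.43. With all libraries, the coefficient of variation of PLAT was 36.3% in the positive and 9.24% in the negative group. That of MMP14 was 29.1% and 2.35%, so the negative libraries do not stand for the spread of the positive ones.

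**Figure D1:**
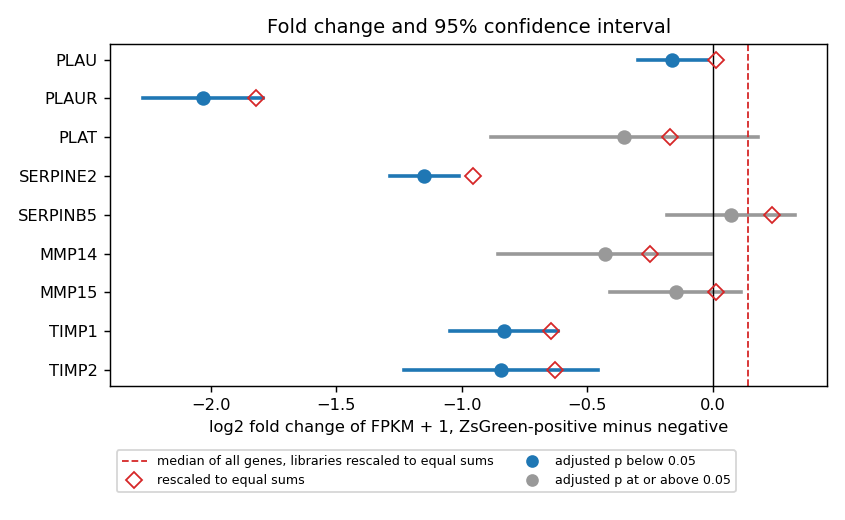
Log2 fold change of FPKM + 1 (ZsGreen-positive minus ZsGreen-negative, horizontal axis) of each gene with its 95% confidence interval, blue where the adjusted p was below 0.05 and grey otherwise; open red diamonds give the value with every library rescaled to the same sum and the dashed line the median of all genes then (0.14). PLAUR lies furthest to the left at -2.03, and PLAU and MMP15 lie at 0.015 after rescaling.

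Because FPKM is per length, the 9 genes can be ordered by level within a group. In ZsGreen-negative cells the order of the mean FPKM was PLAUR, TIMP1, SERPINE2, PLAU, SERPINB5, MMP14, MMP15, TIMP2 and PLAT. The ranges of neighbours overlapped for PLAUR and TIMP1, for SERPINE2 and PLAU, and for MMP15 and TIMP2. In ZsGreen-positive cells the order was PLAU, TIMP1, SERPINE2, SERPINB5, PLAUR, MMP14, MMP15, TIMP2 and PLAT, with overlap between SERPINB5 and PLAUR, MMP14 and MMP15, and TIMP2 and PLAT. PLAUR thus moved from rank 1 to rank 5 and PLAU from rank 4 to rank 1.

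The summed FPKM of the 9 genes was 304 to 318 in the ZsGreen-negative and 176 to 180 in the ZsGreen-positive libraries. Within that sum the share of PLAUR was 21.8% to 23.5% in the negative and 7.85% to 10.1% in the positive libraries. The share of PLAU was 17.5% to 19.5% in the negative and 28.1% to 29.4% in the positive libraries. The share of TIMP1 was 20.7% to 22.8% in the negative and 18.6% to 22.4% in the positive libraries, which overlapped.

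Ratios of genes within a library do not depend on the scaling between libraries. Among 6 ratios compared, those of PLAU to PLAUR, PLAU to SERPINE2 and MMP14 to TIMP2 were higher in every ZsGreen-positive than in every ZsGreen-negative library. PLAU over PLAUR was 0.743, 0.869 and 0.856 in the negative and 2.86, 3.70 and 2.91 in the positive libraries. In FPKM the ligand's transcript thus went from below to above that of its receptor, a crossing that depends on the transcript lengths used. The mean log2 ratio was -0.28 ± 0.12 in the negative and 1.65 ± 0.21 in the positive libraries (SD, n = 3 each), a difference of 1.93. PLAU over SERPINE2 was 0.953, 0.980 and 1.04 in the negative and 1.91, 2.00 and 2.11 in the positive libraries, with a difference of 1.02 in the mean log2 ratio. MMP14 over TIMP2 was 1.31, 1.55 and 1.34 against 1.63, 2.01 and 2.41, a difference of 0.51. The positive libraries came closest to the negative ones here, with 1.63 in replicate 1 against 1.55 in ZsGreen-negative replicate 2. Without ZsGreen-positive replicates 2 and 3 that difference was 0.22. Each of these 3 ratios gave p = 0.1 in an exact permutation test (two-sided, the smallest that 3 against 3 libraries can give, 0.2 adjusted over the 6 ratios), so that the design could not pass the threshold.

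The other ratios overlapped between the groups. MMP14 over MMP15 was 1.11, 1.39 and 1.24 against 1.13, 0.725 and 1.21 (exact permutation test, two-sided, p = 0.3), and the difference in mean log2 ratio of -0.31 was -0.082 without ZsGreen-positive replicate 2. PLAU over PLAT was 8.77, 10.8 and 10.9 against 18.6, 10.8 and 9.07 (p = 0.5 by the same exact test), where replicate 1 stood apart among the positive libraries. TIMP1 over TIMP2 was 7.89, 8.30 and 6.89 against 7.26, 12.2 and 6.79 (p = 0.9 by the same exact test). Adjusted over the 6 ratios these were 0.45, 0.6 and 0.9.

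**Figure D2:**
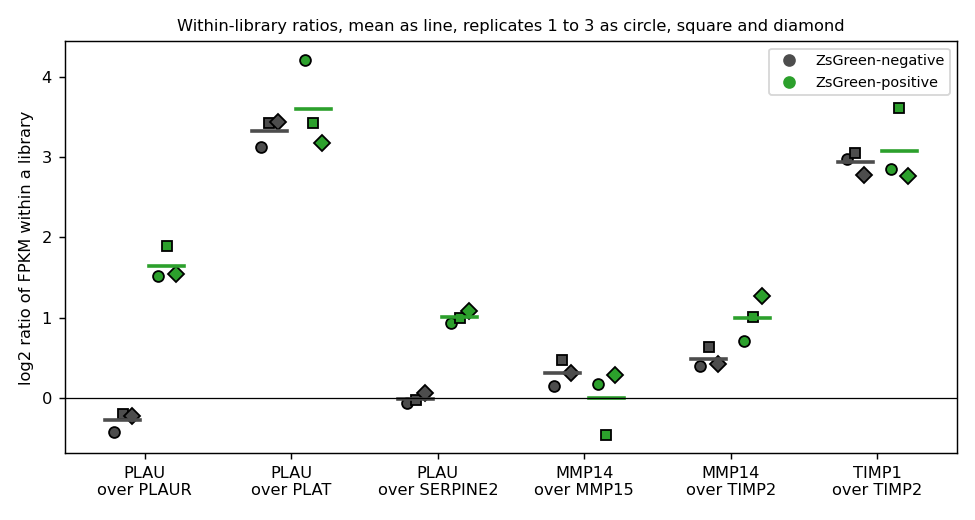
Log2 ratio of the FPKM of 2 genes within a library (vertical axis) for 6 pairs, in ZsGreen-negative (grey) and ZsGreen-positive (green) libraries; lines are means of 3 libraries. For PLAU over PLAUR the means lie at -0.28 and 1.65, and for TIMP1 over TIMP2 the points of the groups overlap.

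Other genes of plasmin and clotting control rose in part and fell in part. Of 21 listed, 13 were tested, 5 fell, 4 rose and 4 did not pass, with a median log2 fold change of 0. Without ZsGreen-negative replicate 1, 2 or 3, only 2 rose in each case, as with no filter, a minimum mean of 5 FPKM or quantile normalisation. F3, tissue factor, the trigger of clotting, fell from 28.6 ± 0.859 to 7.002 ± 1.03 FPKM. F2RL1, a protease-activated receptor, fell from 161.5 ± 3.49 to 61.0 ± 3.53 FPKM. PROCR, the endothelial protein C receptor, rose from 25.1 ± 2.39 to 53.5 ± 3.17 FPKM. Chosen after its values were seen, PLG, the plasminogen gene itself, was listed at 0 in all 6 libraries.

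The remaining matrix metalloproteinases were scarce. Of 21 listed, 17 had a mean under 1 FPKM and were not tested, 1 fell, 1 rose and 2 did not pass, with a median of -0.21. MMP7, matrilysin, fell from 2.42 ± 0.484 to 0.713 ± 0.0146 FPKM, and MMP11, stromelysin 3, rose from 3.78 ± 0.121 to 6.10 ± 1.45 FPKM. The MMP11 call was lost without ZsGreen-negative replicate 1, 2 or 3 (adjusted p = 0.0663, 0.0533 and 0.0618), and 2 metalloproteinases of this list fell without ZsGreen-positive replicate 1. In a list of 4 further regulators, BSG, which encodes basigin, an inducer of metalloproteinases, was the only one tested and fell from 203.8 ± 6.99 to 159.6 ± 24.3 FPKM (adjusted p = 0.022). The BSG call was lost after rescaling to a sum of 1000000 (adjusted p = 0.0538), without ZsGreen-negative replicate 1 or 2 (0.0694 and 0.0679) and without ZsGreen-positive replicate 3 (0.0535).

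Proprotein convertases remove the inhibitory propeptide of MMP14 and MMP15. Of 5, 4 were tested, 1 fell, 1 rose and 2 did not pass, with a median of -0.049. Without ZsGreen-positive replicate 2, 2 fell, and without ZsGreen-positive replicate 3, 2 rose. FURIN fell from 9.20 ± 0.961 to 5.83 ± 0.786 FPKM and PCSK6 rose from 1.65 ± 0.233 to 4.61 ± 1.36 FPKM. The FURIN call was lost after rescaling to a sum of 1000000 (adjusted p = 0.0551).

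Of 19 ADAM and ADAMTS proteases 8 were tested, 3 fell, 3 rose and 2 did not pass, with a median of 0.059. The sheddases ADAM17 and ADAM10, which release growth factors and receptors from the cell surface, fell from 58.3 ± 0.758 to 25.9 ± 1.685 FPKM and from 98.7 ± 1.70 to 48.8 ± 0.660 FPKM. ADAM15 rose from 15.7 ± 0.236 to 47.4 ± 3.03 FPKM (log2 fold change 1.53 ± 0.070; limma, adjusted p = 3.92e-06) and ADAM19 from 2.92 ± 0.404 to 7.61 ± 1.35 FPKM.

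Among other serine proteases and Kunitz-type inhibitors, 11 of 18 were tested, 6 fell, 0 rose and 5 did not pass, with a median of -0.68. The count that rose was 1 without ZsGreen-positive replicate 2 or 3, and 2 after either rescaling to a sum of 1000000. PRSS22 fell from 17.9 ± 1.06 to 6.13 ± 1.23 FPKM. The kallikrein-related peptidases KLK6 and KLK7 fell from 46.4 ± 1.98 to 22.0 ± 3.69 FPKM and from 20.5 ± 0.802 to 11.9 ± 2.85 FPKM. SPINT1, an inhibitor of the membrane protease matriptase, fell from 48.8 ± 0.651 to 22.8 ± 3.96 FPKM.

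Further serpins mostly fell. Of 16, 8 were tested, 7 fell and 1 rose, with a median of -0.97. Named after its values were seen, SERPINB6 was the one that rose, from 35.1 ± 2.81 to 47.3 ± 9.19 FPKM (adjusted p = 0.0359). No serpin of the list rose without ZsGreen-negative replicate 1, 2 or 3, without ZsGreen-positive replicate 1 or 2, with no filter or with no variance trend. SERPINA3, antichymotrypsin, was at 12.4, 11.0 and 10.6 FPKM without fluorescence and at 1.99, 1.09 and 0 FPKM with it. SERPINB8 fell from 6.65 ± 0.342 to 1.40 ± 0.861 FPKM. SERPINB1, an inhibitor of neutrophil elastase, fell from 60.4 ± 3.36 to 21.7 ± 0.489 FPKM, and SERPINB9, an inhibitor of granzyme B, fell from 9.35 ± 0.318 to 3.84 ± 0.406 FPKM.

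Of 16 cathepsins and cystatins 13 were tested, 4 fell, 5 rose and 4 did not pass, with a median of 0.22. CSTA, the cysteine protease inhibitor stefin A, fell from 83.8 ± 6.83 to 24.9 ± 0.808 FPKM. The lysosomal proteases CTSV and CTSZ rose from 1.72 ± 0.117 to 6.15 ± 0.231 FPKM and from 28.9 ± 0.538 to 61.0 ± 4.12 FPKM. CTSK was at 2.40, 3.31 and 3.49 FPKM against 0.467, 2.25 and 0 FPKM (limma, adjusted p = 0.0305). That call was lost without any 1 of the 3 ZsGreen-negative libraries (adjusted p = 0.0544, 0.0838 and 0.0905) and without ZsGreen-positive replicate 1 or 3 (0.0885 and 0.0704). The CTSK call was also lost with a pseudocount of 0.1 or 0.01 (limma, adjusted p = 0.0616 and 0.108) and with no filter (0.0643).

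Matrix proteins that such proteases cut formed the last list. Of 19, 9 were tested, 6 fell, 0 rose and 3 did not pass, with a median of -0.51. COL7A1, the anchoring fibril collagen, fell from 4.33 ± 0.0733 to 0.786 ± 0.716 FPKM and COL12A1 from 17.03 ± 1.02 to 8.94 ± 0.681 FPKM. COL4A5, a basement membrane collagen chain, fell from 12.1 ± 0.598 to 8.10 ± 1.00 FPKM, and COL1A1 from 2.102 ± 0.113 to 0.865 ± 0.266 FPKM. After rescaling to a sum of 1000000 only 3 fell, and the COL4A5 call was lost (adjusted p = 0.0704). With no filter on low values 1 rose.

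Over the 9 lists together, 71 of 139 genes were tested, 34 fell (47.9%), 15 rose (21.1%) and 22 did not pass, beside 30.0% and 29.4% of all tested genes. Their median log2 fold change was -0.28.

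For the gene with the largest change in each role, the 3 tested genes with the highest Pearson correlation over the 6 libraries were named, small RNA genes left out. The points include the difference between the groups, so that the correlations are given as a description only. RMND5A (0.99999), CDKN1A (0.9997) and IFITM1 (0.99948) were closest to PLAUR, for which 413 genes reached 0.99. For SERPINE2 they were MAPK1IP1L (0.99981), BIK (0.99961) and CYP51A1 (0.9996), among 610 genes at 0.99 or above. TIMP2 was closest to SBDSP1 (0.99956), TANC2 (0.99608) and AJUBA (0.99586), with 20 such genes. MMP14 was closest to SELT (0.99513), PRKAG2 (0.99321) and ING3 (0.99253), and PLAT to IRAK2 (0.99561), TCEB3 (0.99208) and LOC101929705 (0.99148), with 6 and 3 such genes.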

How the data were processed

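RNA was isolated with TRIzol and a miRNeasy Micro kit and made into libraries with the TruSeq Stranded mRNA kit, per the labels' protocols. The authors deposited 1 FPKM value per gene symbol and library. The submitters' processing notes name TopHat2 2.1.1, Bowtie2 2.2.8, SAMtools 0.1.18, Cuffdiff 2.2.1 and the build hg19. The sources used here give no settings, annotation, strand use or scaling. Since FPKM are relative to a library total, abundant RNAs can shift all other values.

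Groups came from the sample descriptions. Log2(FPKM + 1) of 12213 genes with a mean of at least 1 FPKM was fitted with limma 3.58.1 in R 4.3.3 (mean-variance trend, 4 residual and 3.22 prior degrees of freedom, two-sided), adjusted by Benjamini-Hochberg over all tested genes, with a threshold of 0.05. This scale understates changes of low genes. The fit was run on simulated data in which each gene had the same SD in both groups, so that unequal spread was not tested. Ratios used exact permutation tests (Python 3.11.15, SciPy 1.17.1). Fragments behind a value were estimated from the longest coding transcript (GENCODE 29), so no count model was run. At most 0.45% of tested genes had equal values in a pair of libraries, and all 6 were kept.

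The 9 genes and the related lists were chosen with earlier results of these data known. Named list genes are up to 4 per list past the threshold with the largest absolute log2 fold change, of which 1 is not reported here. Alternatives were other pseudocounts, filters, scalings and variance models, the replicate number as a block, and leaving out libraries.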

Additional observations from a re-analysis of the deposited data

How the results depend on the processing

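Under 18 alternatives, PLAUR, SERPINE2, TIMP1 and TIMP2 stayed lower and past the threshold in each, and 0 of the 9 genes rose in any. At least 4 of the 9 genes fell in each, where 30.0% of all tested genes fell in the main fit. The share of all genes that fell under each alternative is not given here. Calls over all 12213 genes in either direction were 5964 to 7579 with 1 library left out, against 7258. The PLAU call was lost under 8 alternatives. Its log2 fold change was 0.015 with each library rescaled to a sum of 1000000 and -0.004 with that rescaling without small RNA genes. MMP15 was also at 0.015 under the first of these, and SERPINB5 ranged from -0.038 to 0.154 when 1 library was left out. With a minimum mean of 5 FPKM, 9 list genes rose instead of 15, as fewer genes were tested. Leaving out any ZsGreen-negative library lowered the calls over all tested genes, so that a call lost there may not be particular to its gene. Leaving out 1 library at a time, the difference in log2 PLAU over PLAT ranged from -0.027 to 0.49 (0.28 with all) and that in TIMP1 over TIMP2 from -0.13 to 0.30 (0.14 with all). Without ZsGreen-positive replicates 2 and 3 the latter was -0.079. The causes of these changes were not tested. The titles give both groups the numbers 1 to 3, but same-numbered libraries did not deviate together (r = -0.03 to -0.021 across genes) and 0 of 6 correlated best with their own number. With the replicate block 6915 genes passed instead of 7258, and 4 of the 9 genes fell, PLAU being lost (adjusted p = 0.103). Under the rescaling to 1000000, 62.1% of called genes were higher, against 49.5%. In the libraries whose depth was resolved, the counting error was largest for PLAT, the lowest of the 9 genes.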
